A study of Mus musculus with 27 samples.

Results

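The genes described here are 33 cell cycle genes, taken from a list of gene symbols. All 33 matched a gene identifier, out of 54446 in the count tables, of which 33619 had a read in some library. By textbook role, 12 act in DNA replication: the 6 subunits of the MCM helicase (Mcm2 to Mcm7), Gins2, Cdc6, Pcna, and the nucleotide enzymes Tyms, Rrm1 and Rrm2. The other 21 act in chromosome condensation, spindle function and mitotic exit, and are called mitosis members below.

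RNA was sequenced in bulk from cells sorted out of pancreatic islets or skin-draining lymph nodes of NOD mice, a strain that develops autoimmune diabetes, at 12 weeks of age. TG+ mice are labelled Ins2-CCL21 NOD and carry the chemokine CCL21 under an insulin promoter, so the transgene is driven in beta cells. TG- mice are labelled NOD/ShiLtJ. The labels give 8 groups: CD45 cells from islet infiltrates (4 TG+, 4 TG-), gp38-low islet cells (4 TG+, 4 TG-), gp38-high islet cells (2 TG+, 2 TG-), and FRCs, the fibroblastic reticular cells of lymph nodes (3 TG+, 4 TG-). CD45 is the common leukocyte antigen, gp38 is podoplanin, and FRCs are the stromal cells of T cell zones. The labels do not tie libraries to animals, so p-values measure only how far these samples spread, and that spread may be technical.

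The sort markers went against the labels in 14 of 27 libraries, when the higher of Ptprc, which encodes CD45, and Pdpn, which encodes gp38, was set beside the label. The libraries were therefore described in 4 classes set by 3 marker levels, in CPM, a gene's count scaled to the total over all genes of its library, and every label below is the library as labelled. Ptprc was above 100 CPM in 8 libraries, at 169 to 679 CPM: CD45 TG- replicate 4, gp38-low TG- replicate 1, gp38-high TG- replicate 2, all 3 of FRC TG+, and FRC TG- replicates 3 and 4. Ccl21a, the chemokine of lymph node stroma, was above 1000 CPM in 7 (CD45 TG+ replicate 3, CD45 TG- replicates 1 to 3, gp38-low TG+ replicates 1 and 3, gp38-low TG- replicate 3). Msln, which encodes the mesothelial surface protein mesothelin, was above 100 CPM in 4 (CD45 TG+ replicate 1, gp38-low TG- replicate 4, gp38-high TG- replicate 1, FRC TG- replicate 2). The remaining 8 passed none of these levels. The class sizes, 8, 7, 4 and 8, equal the numbers of libraries labelled CD45, FRC, gp38-high and gp38-low. Pdpn was at 143 to 218 CPM in Msln-high, 61.7 to 103 in Ccl21a-high and 51.1 to 97.3 in remaining libraries. Whether labels were exchanged between libraries was not tested. The lowest library inside each class had 169 CPM of Ptprc, 2162 of Ccl21a or 573 of Msln, against at most 5.79, 5.28 and 2.52 CPM outside it. The 5 Ptprc-high libraries labelled FRC had 0.435 to 2.23 CPM of Ccl21a and 1339 to 2729 CPM summed over 8 B cell markers, so a defining stromal chemokine was low in them. Reads in genes numbered 8517844 to 25194443 per library, and the non-coding RNA Gm26917 alone took 20.8 to 35.99% of them in Ptprc-high libraries, against 5.31 to 22.2% in the other 19. The classes were drawn from measured levels, so differences between them are descriptions with no test. In such bulk samples, fewer cells of a type and less RNA per cell cannot be told apart.

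Before a cell copies its DNA, the factor Cdc6 loads the MCM helicase onto replication origins, and Pcna later clamps the polymerases to the strand while Rrm1, Rrm2 and Tyms supply nucleotides. Cyclin A2 and the B-type cyclins with Cdk1 then drive mitosis, in which the Aurora and Plk1 kinases, kinesin motors and the spindle checkpoint act before Cdc20 and Ube2c start the destruction of mitotic proteins. Many replication genes are known targets of E2F factors at the G1/S transition, while many mitotic genes carry a cell cycle homology region (CHR) bound by the DREAM and B-Myb/FoxM1 complexes. In lymphoid organs and inflamed tissue, dividing lymphocytes are a known source of such transcripts, while resting stroma has few.

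The sequences before 5 members are shown as examples that hold an E2F or a CHR word, as listed below. They are Mcm5 and Mcm6 among the replication members, Mki67 and Cdc20 among the mitosis members, and Cdk1, which holds words of both kinds. They do not stand for the levels described below: Mcm2, Mcm3, Rrm2 and Pcna held no E2F word, and Plk1 held no CHR word. Each run is the 250 bases before the transcription start in RefSeq (GRCm38.p6), 5′ to 3′ on the strand of the gene, with E2F words and CHR words in capitals. They lie at chr8:75109259-75109508 (plus strand), chr1:128359706-128359955, chr7:135716380-135716629, chr4:118437344-118437593 and chr10:69352913-69353162 (all 4 minus strand).
Mcm5: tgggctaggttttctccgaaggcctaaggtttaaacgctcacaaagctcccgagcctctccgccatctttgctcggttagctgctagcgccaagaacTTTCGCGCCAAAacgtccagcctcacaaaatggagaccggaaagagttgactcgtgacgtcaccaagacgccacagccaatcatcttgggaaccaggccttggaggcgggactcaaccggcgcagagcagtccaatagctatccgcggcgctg
Mcm6: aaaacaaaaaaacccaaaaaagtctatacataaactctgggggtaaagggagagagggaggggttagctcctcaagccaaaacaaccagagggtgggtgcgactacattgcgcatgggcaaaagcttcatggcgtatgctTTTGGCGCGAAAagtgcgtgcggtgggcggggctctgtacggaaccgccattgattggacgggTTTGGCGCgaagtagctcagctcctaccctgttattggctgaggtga
Mki67: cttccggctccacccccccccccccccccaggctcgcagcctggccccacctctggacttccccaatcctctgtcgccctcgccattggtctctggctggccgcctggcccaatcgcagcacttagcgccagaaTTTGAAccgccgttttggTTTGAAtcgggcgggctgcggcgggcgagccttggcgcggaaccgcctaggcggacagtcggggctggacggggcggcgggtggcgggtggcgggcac
Cdc20: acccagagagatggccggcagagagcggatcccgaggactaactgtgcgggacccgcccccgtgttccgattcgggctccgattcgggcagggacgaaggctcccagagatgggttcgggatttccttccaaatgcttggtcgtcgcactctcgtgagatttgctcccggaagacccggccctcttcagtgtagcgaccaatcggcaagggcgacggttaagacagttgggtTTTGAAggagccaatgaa
Cdk1: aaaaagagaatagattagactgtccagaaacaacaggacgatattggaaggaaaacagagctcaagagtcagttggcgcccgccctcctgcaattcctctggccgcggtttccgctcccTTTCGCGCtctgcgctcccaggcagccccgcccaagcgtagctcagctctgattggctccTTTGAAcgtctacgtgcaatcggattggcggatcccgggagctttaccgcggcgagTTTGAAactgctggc

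The E2F words searched were TTTCCCGC, TTTCGCGC, TTTGCCGC and TTTGGCGC, and the CHR words were TTTGAA and TTCGAA, each on both strands. In Mcm5 and Mcm6, words on opposite strands overlap and form 1 longer capital run. RefSeq gave windows for 27 of the 33 members, 28 windows in all since Mcm7 has a pair. An E2F word stood before 4 of 10 replication members (Mcm5, Mcm6, Mcm7, Cdc6), in 4 of their 11 windows, and before 1 of 17 mitosis members (Cdk1), against 1.86% of all 32851 windows. A CHR word stood before 8 of 17 mitosis members, among them Mki67, Top2a, Ccnb2 and Bub1b, and before 2 of 10 replication members (Mcm2, Mcm7), against 17.1% of all windows. CCAAT, also on both strands, stood before 15 of 17 mitosis members and 8 of 10 replication members, against 33.8% of all windows. These are matches of letters and not measured binding sites.

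The Ptprc-high libraries held the most RNA of these genes. Summed over the 33 members, the median level was 1149.7 CPM in the 8 Ptprc-high libraries, against 290.2 in the Ccl21a-high, 452 in the Msln-high and 359.9 in the remaining libraries. Every Ptprc-high library was above every one of the other 19 for the sum, with 906 to 1527 against 247 to 484 CPM. The same held for 20 of the 33 single members (8 of 12 replication, 12 of 21 mitosis) and the reverse for 0. Of all 14965 genes with a mean of at least 1 CPM, 12.4% were above in every Ptprc-high library and 20.4% below. The median ratio of Ptprc-high to the other libraries was 3.37 over the members and 0.788 over all genes.

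Among replication members, Mcm5 (ENSMUSG00000005410.6, chromosome 8, 75109569 to 75128439 in the GENCODE M21 annotation of GRCm38), a subunit of the helicase ring, stood furthest apart. It was at 103, 119.5, 142, 111, 105, 106, 91.9 and 118 CPM in the Ptprc-high libraries (in order FRC TG+ replicate 2, FRC TG- replicate 4, CD45 TG- replicate 4, gp38-high TG- replicate 2, FRC TG+ replicate 4, FRC TG- replicate 3, FRC TG+ replicate 3, gp38-low TG- replicate 1), against 6.78 to 18.7 CPM in the other 19. Its ratio of medians was 10.2, and its lowest Ptprc-high library was far above the highest of the others. Mcm3 was at 81.7 to 138 CPM in Ptprc-high libraries against 11.96 to 21.3 elsewhere, and Mcm2 at 56.8 to 109 against 6.58 to 24.9. Rrm2, the inducible small subunit of ribonucleotide reductase, was at 20.02 to 45.4 CPM against 0.766 to 5.61, and Cdc6 at 9.21 to 16.8 against 0.894 to 4.64. These 4 genes had ratios of 6.51 to 9.21 and no overlap between the classes.

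The 6 MCM subunits, which are built into 1 ring, did not differ by the same factor between the classes. Mcm7 and Mcm6 were 3.25 and 2.84 times as high by the ratio of medians, and Mcm4 only 1.68 times, with 29.1, 51.3 and 74.1 CPM (lowest, median, highest) in Ptprc-high libraries against 16.2 to 37.2 CPM elsewhere, so that its classes overlapped. Rrm1, the large reductase subunit, differed little (1.58 times) yet without overlap, at 55.6 to 85.1 against 31.5 to 48.7 CPM. The annotated Rrm1 gene contains Gm45399 on the same strand, so its count is uncertain in that overlap. Pcna, the polymerase clamp, overlapped, at 42.2, 76.1 and 114 CPM (lowest, median, highest) against 24.8 to 55.5. Gins2, a subunit of the GINS helicase partner, and the thymidylate synthase gene Tyms also overlapped, with ratios of 1.86 and 1.28. That of Tyms was the lowest of the 12.

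**Figure D1:**
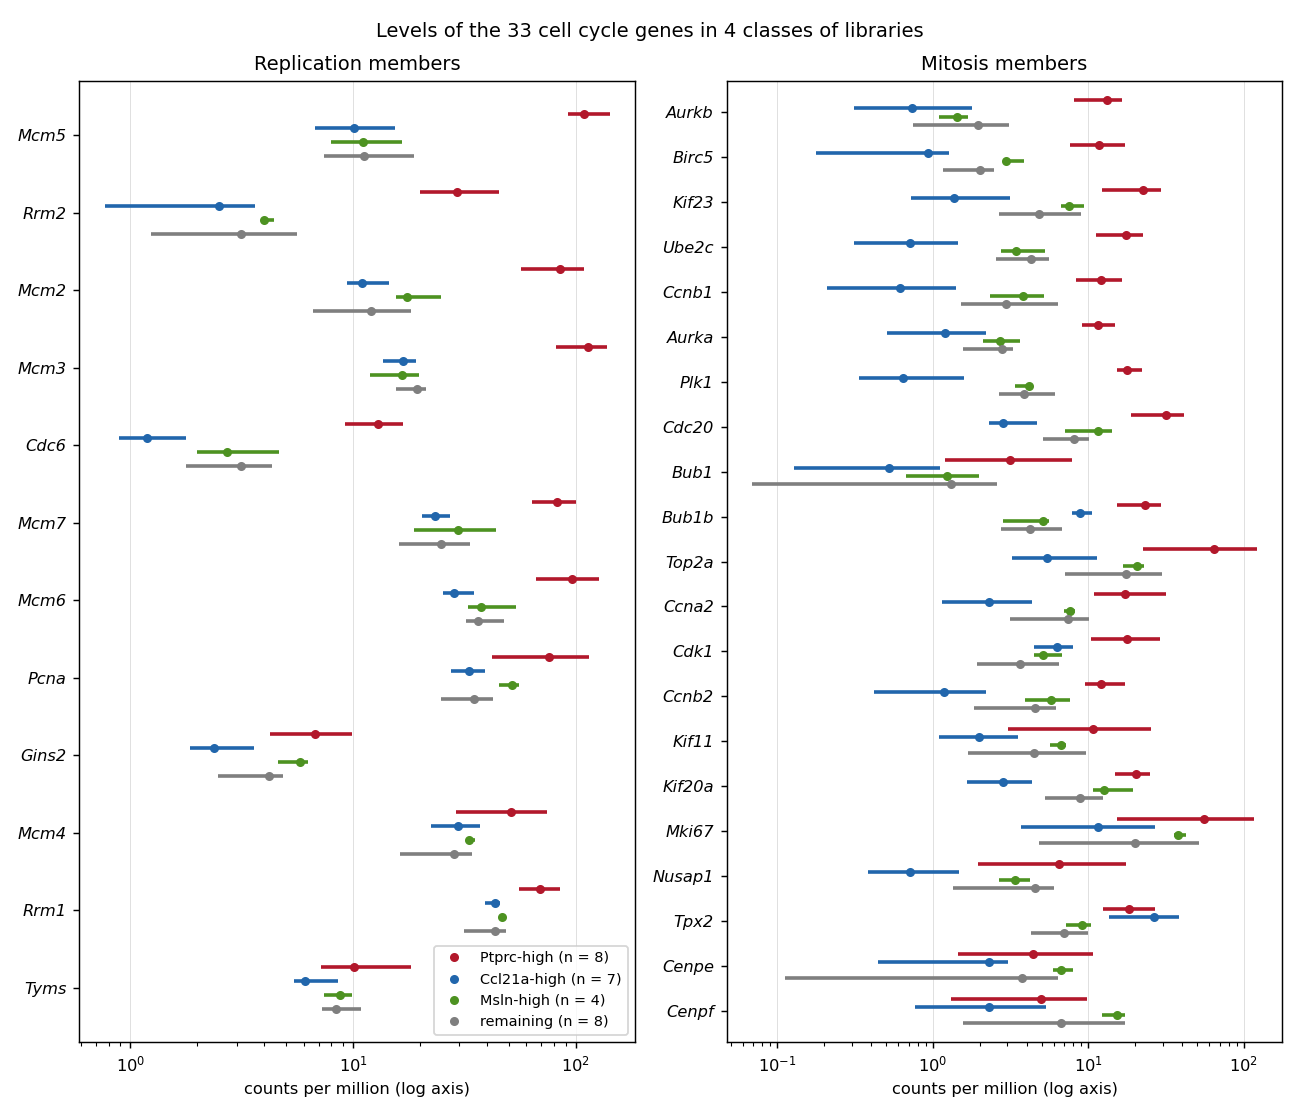
Level of each of the 33 members in CPM on a log axis, with replication members left and mitosis members right, sorted by the ratio of Ptprc-high to other libraries. Points are medians and bars run from the lowest to the highest library of a class; Mcm5 is at 91.9 to 142 in Ptprc-high libraries and at most 18.7 elsewhere, while the bars of Cenpf overlap between Ptprc-high libraries and the Ccl21a-high and remaining ones.

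Mitosis members divided into those high in every Ptprc-high library and those that were not. Aurkb, the kinase of the chromosomal passenger complex, was at 8.05 to 16.5 CPM in Ptprc-high libraries against 0.312 to 3.09 CPM elsewhere (9.79 times by medians), and its partner Birc5 (survivin) at 7.59 to 17.2 against 0.177 to 3.87 (8.103 times). Kif23, a kinesin of the central spindle, was at 12.2 to 29.2 CPM against 0.728 to 9.42. Cdc20, the activator of the anaphase-promoting complex, was at 18.7 to 41.3 CPM against 2.305 to 14.2, and Ube2c, the ubiquitin-conjugating enzyme that works with it, at 11.3 to 22.4 against 0.312 to 5.605. The kinases Plk1, Aurka and Cdk1, the cyclins Ccnb1, Ccnb2 and Ccna2, and the checkpoint kinase Bub1b also stood above all other libraries, with ratios of 3.06 (Ccnb2) to 6.29 (Ccnb1).

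The other 9 mitosis members overlapped. Mki67, the gene of the Ki-67 antigen and a common marker of dividing cells, was at 15.2, 55.4 and 116 CPM (lowest, median, highest) in Ptprc-high libraries, against 3.702, 11.5 and 26.8 in Ccl21a-high, 35.4, 37.6 and 42.5 in Msln-high and 4.799, 19.8 and 51.1 in remaining libraries. Its level in the Ptprc-high library FRC TG+ replicate 2 (15.2 CPM) was thus below that of every Msln-high library. Cenpf, a kinetochore protein, had a ratio of 0.95, the lowest of all 33, and its class median was highest in the Msln-high libraries. It was at 1.31 to 9.74 CPM in Ptprc-high, 0.766 to 5.37 in Ccl21a-high, 12.2 to 17.3 in Msln-high and 1.56 to 17.3 in remaining libraries. Top2a, the topoisomerase that separates sister DNA, overlapped only through its lowest Ptprc-high values, at 22.4 to 122 CPM against 3.23 to 29.7. Kif20a overlapped through a single library, gp38-low TG- replicate 4, whose 19.5 CPM exceeded the lowest Ptprc-high value of 14.8.

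Between genes, levels were compared per kilobase of annotated exon. On that scale Pcna was the highest replication member in Ptprc-high libraries at a median of 31.7 CPM per kb, ahead of Mcm3 (30.2) and Mcm5 (27.2). In Ccl21a-high libraries the median of Pcna was 13.9 CPM per kb and those of Mcm3 and Mcm5 were 4.48 and 2.53. Among mitosis members Cdc20 led in Ptprc-high libraries at 17.002 CPM per kb and Tpx2 in Ccl21a-high libraries at 5.68. The first of these is the gene that starts anaphase and the second builds the spindle, and which of them led differed between the classes.

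Outside the Ptprc-high libraries the members were low but present: the fewest reads behind a value were 1, for Bub1 and Cenpe, and no member was at 0 in any library. Ccl21a-high libraries had the lowest median of the mitosis sum, 75.8 CPM, with a range of 51.6 to 126 CPM against 158 to 199 in Msln-high and 66.2 to 213 in remaining libraries. In every Ccl21a-high library Cdc6, Kif20a, Ccnb1, Plk1, Cdc20 and Ube2c were below all Msln-high and remaining libraries, which is 6 of 33 members against 10.8% of all genes. Plk1, for example, was at 0.337 to 1.58 CPM in Ccl21a-high, 3.38 to 4.31 in Msln-high and 2.65 to 6.11 in remaining libraries. Msln-high libraries exceeded every remaining library in Pcna (44.999 to 55.5 against 24.8 to 42.4 CPM) and Birc5 (2.89 to 3.87 against 1.15 to 2.47), which is 2 of 33 members against 19.9% of all genes, and were below all of them in 0, against 8.4%.

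A pair of mitosis members were high in Ccl21a-high libraries. Tpx2 (ENSMUSG00000027469.16, chromosome 2, 152847964 to 152895321), which activates Aurora A on spindle microtubules, was at 38.1, 27.7, 26.6, 18.6, 27.5, 13.6 and 20.6 CPM in CD45 TG+ replicate 3, CD45 TG- replicates 1, 2 and 3, gp38-low TG+ replicates 1 and 3 and gp38-low TG- replicate 3. It was at 7.13 to 10.4 CPM in Msln-high and 4.25 to 9.95 in remaining libraries, and at 12.5 to 26.7 in Ptprc-high ones, so its class median was highest where that of most other mitosis members was lowest. Aurka, the kinase that Tpx2 activates, was at only 0.511 to 2.19 CPM in the same Ccl21a-high libraries, against 9.04 to 14.8 in Ptprc-high ones. Bub1b was at 7.81 to 10.5 CPM in Ccl21a-high libraries against 2.81 to 5.61 in Msln-high and 2.74 to 6.78 in remaining ones. These 2 of 33 members stand against 6.44% of all genes above in every Ccl21a-high library.

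Replication members outweighed mitosis members in every library. The log2 ratio of the summed replication to the summed mitosis CPM had medians of 0.92 in Ptprc-high, 1.47 in Ccl21a-high, 0.54 in Msln-high and 0.88 in remaining libraries, with ranges of 0.48 to 1.47, 0.78 to 1.92, 0.44 to 0.96 and 0.34 to 1.52 in the same order. The ranges overlapped, so the balance of the roles did not set the Ptprc-high libraries apart as the sums did. Among the Ptprc-high libraries the ratio fell as Mki67, itself part of the mitosis sum, rose, with values given below. With each member divided by its exon length the medians were 0.92, 1.55, 0.80 and 0.91. Without Tpx2 and Bub1b, a choice made after their values were seen, the Ccl21a-high median was 2.173 and the other medians were 1.07 (Ptprc-high), 0.66 (Msln-high) and 1.03 (remaining).

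**Figure D2:**
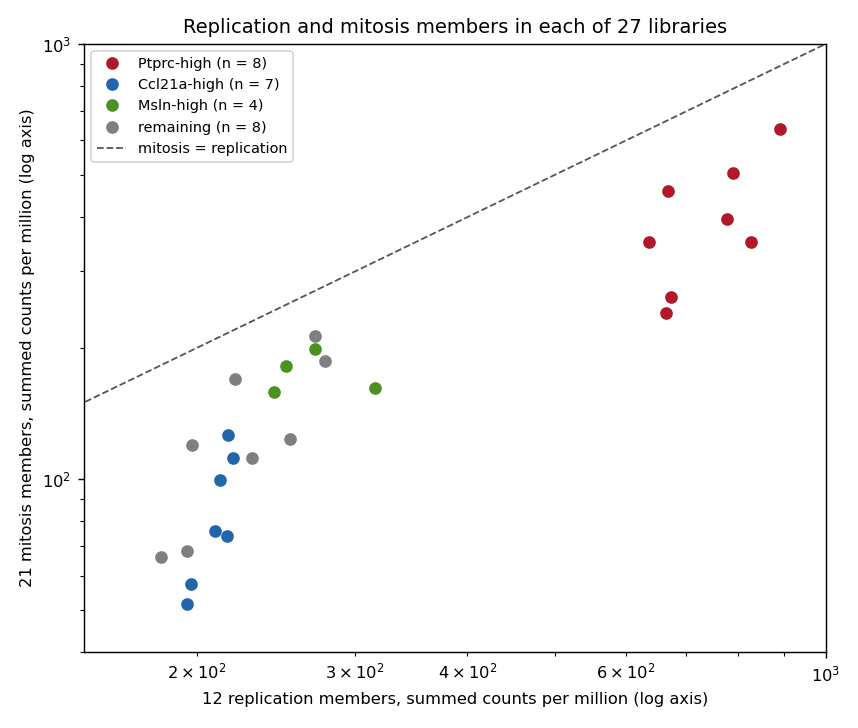
Summed level of the 12 replication members (x) and of the 21 mitosis members (y) in CPM, both on log axes, 1 point per library and 1 colour per class. All 27 points lie below the dashed line of equal sums, and the 8 Ptprc-high libraries lie at 637 to 889.7 on the x axis, against 183 to 316 for the other 19.

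Within the Ptprc-high class, some mitosis members varied several-fold, while the members of either role that set the class apart varied less. Those 8 replication and 12 mitosis members spread at most 2.27-fold (Rrm2) and 2.91-fold (Ccna2). Standing above all other libraries itself favours a small spread. Mki67 (ENSMUSG00000031004.8, chromosome 7, 135689784 to 135716361) was at 15.2 CPM in FRC TG+ replicate 2, 17.2 in FRC TG- replicate 4, 26.99 in CD45 TG- replicate 4, 48.3 in gp38-high TG- replicate 2, 62.5 in FRC TG+ replicate 4, 76.3 in FRC TG- replicate 3, 87.5 in FRC TG+ replicate 3 and 116 in gp38-low TG- replicate 1. In that same order of libraries Top2a was at 23.3, 22.4, 38.3, 63.02, 64.8, 105, 92.98 and 122 CPM and Kif11, the motor that pushes spindle poles apart, at 3.05, 3.08, 4.96, 9.401, 12.1, 18.3, 20.8 and 25.3. The 3 lowest libraries were thus the same for these 3 genes, and libraries labelled FRC were among the lowest and among the highest. Plk1 was at 15.4, 18.5, 22.2, 18.4, 16.2, 16.9, 15.3 and 20.7 CPM and Mcm5 at the values given above, neither of which followed that order. The replication member Pcna did rise with Mki67. It was at 43.4 and 42.2 CPM in FRC TG+ replicate 2 and FRC TG- replicate 4, against 114 and 111 in FRC TG+ replicate 3 and gp38-low TG- replicate 1.

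The highest Ptprc-high library exceeded the lowest 7.59-fold for Mki67 and 1.55-fold for Mcm5. A spread above 5-fold was found for 7 of 21 mitosis members (Nusap1, Kif11, Mki67, Cenpf, Cenpe, Bub1 and Top2a) and 0 of 12 replication members. The widest was Nusap1, a spindle-associated protein, at 1.95 to 17.5 CPM or 8.98-fold, and the narrowest mitosis member was Plk1 at 1.46-fold. Bub1, a kinase of the spindle checkpoint, spread over 1.19 to 7.83 CPM, and Cenpe, a motor of the kinetochore, over 1.46 to 10.8 CPM. Below these 7 the next members were Ccna2 and Cdk1, a cyclin gene and that of its kinase, whose spreads were 2.91-fold and 2.77-fold. The median spread was 2.27-fold over mitosis members, 1.91-fold over replication members and 2.097-fold over all 12876 genes with a mean of at least 1 CPM in the class, so that as lists the members varied about as much as other genes. Pcna, at 2.71-fold, was the widest replication member.

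Of the 7 members that varied most, 6 had transcripts with the lowest GC content of the list, Rrm1 aside. The longest annotated transcripts of Bub1, Nusap1, Kif11, Cenpe, Cenpf and Top2a were 41.04% to 43.4% G or C, while those of Plk1 and Cdc20 were 55.98% and 55.6%. Across the 21 mitosis members, which share these libraries, the Spearman correlation of GC content with the spread was -0.80 in the Ptprc-high and -0.80 in the remaining libraries, against -0.30 in the Ccl21a-high and 0.18 in the Msln-high ones. The Spearman correlation of transcript length with the spread was 0.65 in the Ptprc-high and 0.63 in the remaining libraries, against 0.010 in the Ccl21a-high and -0.43 in the Msln-high ones. Mki67, the other wide member, was at 46.6% GC. Beside those 6, the members with less GC than Mki67 were Rrm1 (43.3%), Ccnb1 (44.2%), Pcna (45.3%), Mcm4 (45.5%), Rrm2 (46.01%), Ccna2 (46.1%) and Kif23 (46.3%). Their spreads were 1.53-fold (Rrm1) to 2.91-fold (Ccna2). The correlation is across genes, which are not independent replicates, and was computed after the spread had been seen.

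Genes outside the list ordered the libraries in a similar way. For each Ptprc-high library, the median log2 deviation from the class median was taken over 1058 genes under 43% GC and over 1842 genes over 55% GC, without the members and at a median of at least 10 CPM. The first minus the second was -0.84, -1.14, -0.79, -0.20, 0.42, 0.44, 0.67 and 0.61, in the order of Mki67 given above. It was below 0 in the 4 libraries with the least Mki67 and above 0 in the 4 with the most. This shift of AT-rich genes moved with the spread of Mki67 between libraries, and its part in that spread was not tested. In the same order the log2 ratio of replication to mitosis members fell, at 1.47, 1.36, 1.24, 0.97, 0.86, 0.65, 0.54 and 0.48. The part of the shift in that ratio was not tested either. In Msln-high libraries, where the GC difference spanned only -0.04 to 0.14, the spread of Mki67 was 1.202-fold.

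**Figure D3:**
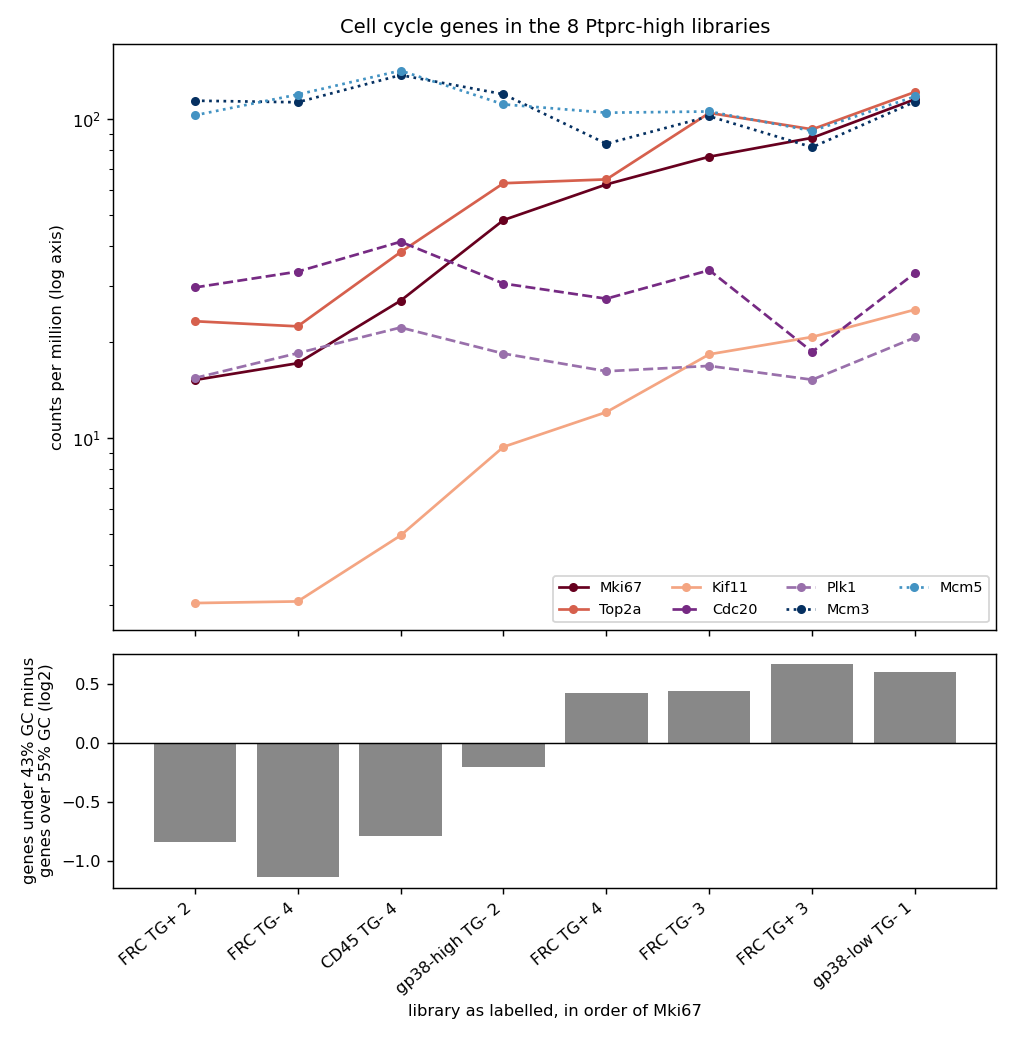
Upper panel, CPM (log axis) of 7 members in the 8 Ptprc-high libraries, in order of Mki67. Lower panel, median log2 deviation of genes under 43% GC minus that of genes over 55% GC in the same libraries; Mki67 runs from 15.2 to 116 while Mcm5 stays between 91.9 and 142, and the lower bars are negative in the 4 libraries with the least Mki67.

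Cell type markers also moved with Mki67 among the Ptprc-high libraries. In the order of Mki67, the summed level of 5 plasma cell markers was 327, 361, 439, 544, 629, 1639, 1577 and 1203 CPM, that of 6 macrophage markers 1508, 4648, 1444, 4517, 2367, 5945, 8725 and 6403 CPM, and that of 8 B cell markers 2729, 2178, 2968, 2585, 2020.1, 1603, 1339 and 1532 CPM. All 5, 6 and 8 markers were detected in each of the 8 libraries, with Jchain (82.3 to 1214 CPM) and Xbp1 (113 to 216) the most abundant plasma cell genes, Lyz2 (739 to 4506) and Csf1r (267 to 1139) the most abundant macrophage genes, and Cd79a (267 to 754) and Cd22 (216 to 595) the most abundant B cell genes. The plasma cell sum was above 1000 CPM in the 3 libraries with the most Mki67 and below it in the other 5, and the B cell sum was lowest in the same 3. Jchain held most of the difference in the plasma cell sum, since Xbp1 and the other 3 plasma cell markers each varied over a far smaller range of CPM. The 8 T cell markers summed to 1908, 1368, 1678, 1525, 1067, 1242, 842 and 1141 CPM in the order of Mki67, and 5 cytotoxic lymphocyte markers to 62.1, 44.8, 52.1, 45.6, 77.9, 139, 99.6 and 126 CPM, with no marker of either list at 0. Their most abundant genes were Lck (174 to 357 CPM) and Cd3e (132 to 379), and Nkg7 (16.3 to 66.2) and Prf1 (18.3 to 29.1). The 4 libraries with the most Mki67 thus had the 4 lowest T cell sums and the 4 highest cytotoxic sums. The 6 germinal centre markers, a stage at which B cells divide rapidly, summed to 107 to 164 CPM in Ptprc-high libraries, against 84.6 to 202 in the other 19, so they did not follow the members. The part of these cell types in the result was not tested.

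The other classes had their own spread. In the remaining libraries gp38-high TG+ replicate 1 had the most Mki67 (51.1 CPM) and gp38-low TG- replicate 2 the least (4.799 CPM), a 10.6-fold range, while Mcm3 kept within 1.37-fold. Gp38-low TG- replicate 2 also had the most negative GC difference of its class, -1.17, and its Cenpe rested on 1 read. In the Ccl21a-high libraries the median spread was 4.2996-fold over mitosis members, 1.56-fold over replication members and 1.81-fold over all genes with a mean of at least 1 CPM there. Those mitosis members were also the lowest in level, with class medians under 1 CPM for Aurkb, Birc5, Bub1, Ccnb1, Nusap1, Plk1 and Ube2c. In the 4 Msln-high libraries the same medians were 1.505, 1.48 and 1.52.

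**Figure D4:**
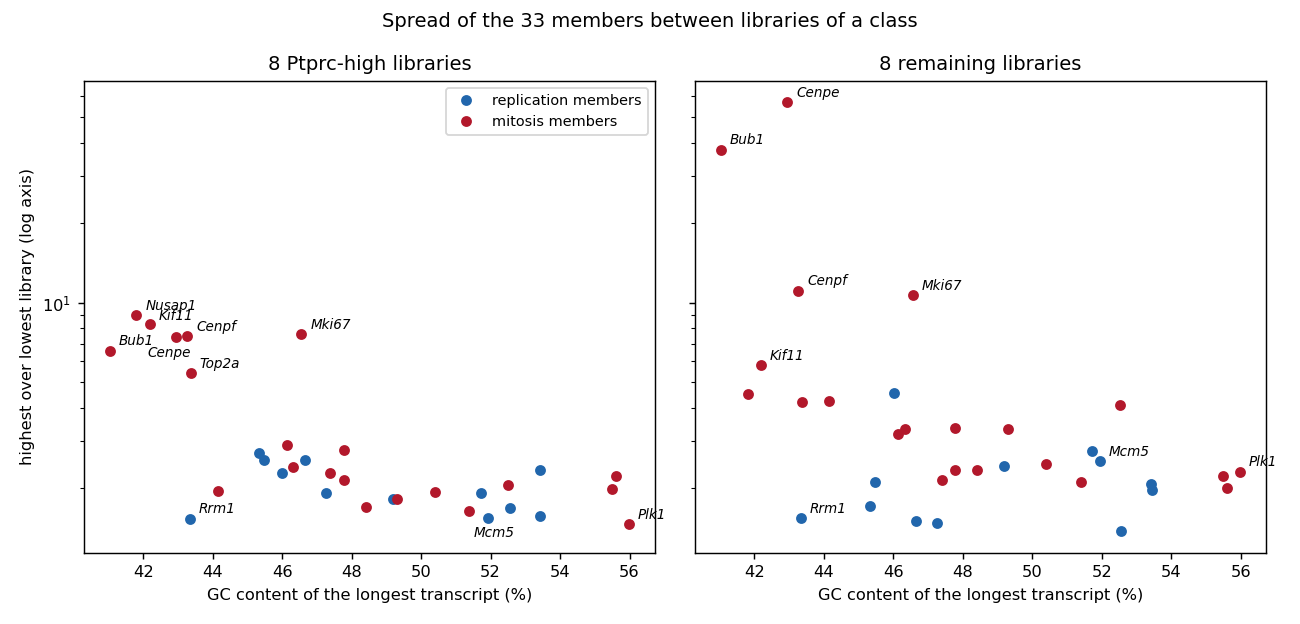
Highest over lowest library for each of the 33 members (log axis) against the GC content of its longest annotated transcript, in the 8 Ptprc-high libraries (left) and the 8 remaining libraries (right). The 6 members between 41.04% and 43.4% GC that are labelled in the left panel beside Rrm1 spread more than 5-fold there, while Plk1 at 55.98% spread 1.46-fold; the highest point on the right, Cenpe, rests on 1 read in its lowest library.

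The comparisons that the labels imply were tested with edgeR's quasi-likelihood test over all genes. By label they ask what the transgene changed in each sorted population and how the populations differed. The sort markers went against the label in 14 of 27 libraries, so a group may not hold the cells its label names. In none of the 6 comparisons did any gene pass an adjusted p of 0.05 (Benjamini-Hochberg), so 0% of the genes tested in each, and 0 of 33 members, were called. Before adjustment, p was under 0.05 for 1402 genes in CD45, 273 in gp38-low, 920 in gp38-high and 981 in FRC libraries (TG+ against TG-), 393 in CD45 against gp38 and 6639 in gp38-low against FRC. Among the TG- libraries labelled CD45, gp38-low and gp38-high, 1 Ptprc-high library of each group held the highest value of most members. The values below are therefore estimates that did not pass, given with the libraries that set them.

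In libraries labelled CD45, 7 members had estimates above 0 and 26 below, and 0 members were free of overlap, against 5.18% of genes higher and 1.4% lower in every TG+ library. The median log2 difference (TG+ over TG-) was -0.84, against -0.047 over all 14871 genes tested. Bub1b was at 2.81, 2.77, 8.16 and 4.84 CPM in CD45 TG+ replicates 1 to 4, against 7.81, 9.601, 10.5 and 24.9 CPM in CD45 TG- replicates 1 to 4. Its log2 difference was -1.81 ± 0.62 (SE; edgeR adjusted p = 0.506), the smallest p among the members. Mcm3 was at 11.96, 15.6, 17.3 and 18.7 CPM in TG+ and 16.8, 16.6, 19.1 and 138 CPM in TG- libraries, so 1 TG- library held nearly the whole difference of -2.0 ± 0.86 (SE; edgeR adjusted p = 0.529). Without that library, CD45 TG- replicate 4, the median over the members was 0.91 with 26 estimates above 0.

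Mki67 in the CD45 libraries averaged 25.2 ± 9.75 CPM in TG+ and 16.1 ± 10.5 CPM in TG- (SD, n = 4 each), a log2 difference of 0.35 ± 0.62 (SE; edgeR adjusted p = 0.848). Pcna averaged 39.1 ± 12.1 CPM in TG+ and 39.3 ± 10.96 CPM in TG- (SD, n = 4 each), a difference of -0.30 ± 0.34 (SE; edgeR adjusted p = 0.759). Mcm4 and Cdk1 had differences of -0.56 ± 0.24 and -1.27 ± 0.53 (SE; edgeR adjusted p = 0.522 and 0.512). An unadjusted p under 0.05 was reached by 4 of 33 members, against 1402 of all 14871 genes. DESeq2 called 0 members and 425 genes. Limma-voom with sample quality weights called 17 members, with a median of 0.65 and so the other direction, where it called 41.6% of all genes. Without CD45 TG+ replicate 3, edgeR called 1 member and 3.33% of genes.

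In libraries labelled gp38-low all 33 estimates were below 0, with a median log2 difference (TG+ over TG-) of -1.42 against -0.0062 over all 14095 genes tested. Cdc20 was at 2.68, 8.201, 3.43 and 5.08 CPM in gp38-low TG+ replicates 1 to 4, against 32.97, 6.81, 4.66 and 14.2 CPM in gp38-low TG- replicates 1 to 4, a log2 difference of -1.67 ± 0.63 (SE; edgeR adjusted p = 0.999). Kif20a, a kinesin of cytokinesis, was at 2.36, 8.99, 2.81 and 5.28 CPM in TG+ and 24.97, 8.82, 4.204 and 19.5 CPM in TG- libraries (-1.62 ± 0.59; edgeR adjusted p = 0.999). The groups overlapped for all 33 members, against 0.641% of genes higher and 0.434% lower in every TG+ library. The highest TG- value of both genes was in the Ptprc-high library, replicate 1. Without it the median was -0.15 and 9 estimates were above 0.

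Mki67 in gp38-low averaged 20.2 ± 18.6 CPM in TG+ and 42.97 ± 51.2 CPM in TG- libraries (SD, n = 4 each), and Pcna averaged 34.6 ± 7.34 CPM in TG+ and 54.8 ± 38.2 CPM in TG-, with log2 differences of -1.20 ± 1.01 and -0.75 ± 0.43 (SE; edgeR adjusted p = 0.999 for both). Mcm5 and Rrm2 differed by -1.88 ± 0.84 and -2.20 ± 1.05 at the same adjusted p. Before adjustment, 2 of 33 members had p under 0.05, against 273 of all 14095 genes. Neither DESeq2 nor limma-voom called a member, where they called 1 and 0 of all 14095 genes. With limma-voom 10 estimates were above 0 and the median over the members was -0.22.

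In libraries labelled gp38-high, with 2 per genotype and the spread estimated with the gp38-low libraries, 6 estimates were above 0 and 27 below, with a median log2 difference (TG+ over TG-) of -0.99 against -0.20 over all 17937 genes. Mcm7 was at 28.2 and 19.4 CPM in TG+ replicates 1 and 2, against 43.8 and 86.96 CPM in TG- replicates 1 and 2 (-1.56 ± 0.73, SE; edgeR adjusted p = 0.663). Mki67 was at 51.1 and 42.7 CPM in TG+ and 36.8 and 48.3 CPM in TG- libraries (0.09 ± 1.29; edgeR adjusted p = 0.992). Every TG+ library was below both TG- libraries for 11 of 33 members, against 26.8% of all genes, and above them for 1 (Nusap1), against 16.3%. Mcm5, Bub1b, Cdc20 and Pcna differed by -2.56 ± 1.33, -1.97 ± 1.16, -1.34 ± 0.93 and -0.71 ± 0.58 (edgeR adjusted p of 0.663 to 0.705). Without the Ptprc-high gp38-high TG- replicate 2 the median over the members was 0.25. Before adjustment, 0 members had p under 0.05, against 920 of all 17937 genes. DESeq2 and limma-voom called 0 members, where they called 40 and 0 of all 17937 genes. The limma-voom median over the members was -0.45.

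In libraries labelled lymph node FRC, 32 estimates were above 0 and 1 below, with a median log2 difference (TG+ over TG-) of 0.53 against 0.035 over all 13819 genes. Mki67 was at 15.2, 87.5 and 62.5 CPM in TG+ replicates 2 to 4, against 12.9, 38.3, 76.3 and 17.2 CPM in TG- replicates 1 to 4 (0.80 ± 0.73, SE; edgeR adjusted p = 0.889). Pcna was at 43.4, 114 and 90.2 CPM in TG+ and 24.8, 49.1, 104 and 42.2 CPM in TG- libraries (0.77 ± 0.52; edgeR adjusted p = 0.865). All 3 TG+ libraries were Ptprc-high, and of the TG- libraries only replicates 3 and 4 were. Beside Pcna, whose p was the smallest of all 33, and Mki67, the smallest p of each role were those of Bub1 and Aurka and of Mcm4 and Rrm1, at 1.06 ± 0.74, 0.90 ± 0.68, 0.48 ± 0.39 and 0.33 ± 0.31 (edgeR adjusted p of 0.871 to 0.889). The groups overlapped for all 33 members, against 0.421% of genes higher and 4.21% lower in every TG+ library. Among the members 0 had p under 0.05 before adjustment, against 981 of all 13819 genes. The other 2 tools called 0 members, where DESeq2 called 542 and limma-voom 0 of all 13819 genes. Without FRC TG- replicate 3 the median over the members was 0.97, and without replicate 2 of TG- it was 0.28.

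For libraries labelled CD45, which by label are leukocytes, no higher level of the members was found than in islet gp38 libraries. Of the 33 estimates (CD45 over the mean of gp38-high and gp38-low), 4 were above 0 and 29 below, with a median of -0.31 against -0.0034 over all 18810 genes. Mki67 differed by -0.78 ± 0.56 and Pcna by -0.14 ± 0.25 (SE; edgeR adjusted p = 0.99999 for both). Cenpf, Nusap1, Tyms and Gins2 had the smallest p of their roles, at -0.92 ± 0.50, -1.10 ± 0.63, -0.24 ± 0.22 and -0.22 ± 0.33 with the same adjusted p. Before adjustment 0 members had p under 0.05, against 393 of all 18810 genes. Neither other tool called a member, where DESeq2 called 12 and limma-voom 0 of all 18810 genes. The limma-voom median over the members was -0.63. The CD45 label held 1 Ptprc-high library of 8 and the 2 gp38 labels held 2 of 12. Without the 1 of CD45, the median was -1.19, and without gp38-low TG- replicate 1 or gp38-high TG- replicate 2 it was 0.02 or 0.13.

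Between gp38-low islet libraries and lymph node FRC libraries all 33 estimates were below 0. The median log2 difference (gp38-low over FRC) was -1.20, against 0.15 over all 18396 genes. An unadjusted p under 0.05 was reached by 19 of 33 members, against 6639 of the 18396 genes. Cdc20 was at 2.68, 8.201, 3.43, 5.08, 32.97, 6.81, 4.66 and 14.2 CPM in gp38-low TG+ and then TG- replicates 1 to 4, against 29.7, 18.7, 27.4, 9.89, 12.7, 33.6 and 33.3 CPM in FRC TG+ replicates 2 to 4 and then TG- replicates 1 to 4. Its log2 difference was -1.73 ± 0.47 (SE; edgeR adjusted p = 0.0943), and the groups overlapped through gp38-low TG- replicates 1 and 4 and FRC TG- replicates 1 and 2. Kif20a, Mcm2 and Mcm3 differed by -1.20 ± 0.37, -1.81 ± 0.60 and -1.71 ± 0.60 at the same adjusted p. Mki67 and Pcna differed by -0.78 ± 0.63 and -0.77 ± 0.33 (edgeR adjusted p = 0.356 and 0.118).

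DESeq2 called 16 and limma-voom 30 members in this comparison, all lower in gp38-low, where they called 25.8% and 47% of all genes; the limma-voom median over the members was -2.06. Without gp38-low TG- replicate 1, edgeR called 26 members and 29.3% of genes, and without FRC TG- replicate 1 it called 2 members and 7.49%. Ptprc-high libraries made up 1 of 8 gp38-low and 5 of 7 FRC libraries. With all Ptprc-high libraries left out (7 gp38-low, 3 gp38-high and 2 FRC libraries stayed in the fit), 0 genes were called, the median over the members was -0.29 and 9 estimates, those of Pcna, Mcm2 and Mcm3 among them, were above 0.

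**Figure D5:**
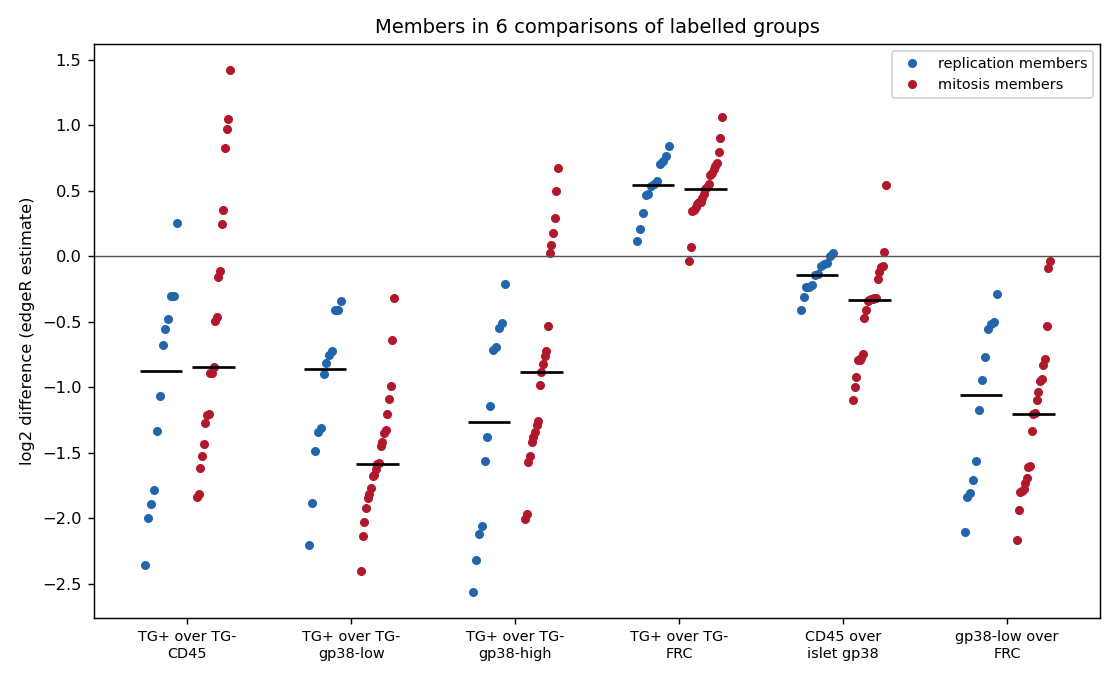
Log2 differences of the 33 members (edgeR estimates, first-named group over the second) in 6 comparisons of labelled groups, with replication members left and mitosis members right in each and a black bar at the median. All gp38-low estimates lie below 0 for TG+ over TG-, nearly all FRC estimates above 0, and 0 of 33 members passed the test in any comparison.

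Other cell cycle genes, from 3 lists by role, showed which parts of the programme stood with the members. Of 16 drivers of G1 and S, 6 were above in every Ptprc-high library (12.4% of all genes were) and 0 below. Cdt1, the licensing partner of Cdc6, was at 45.6 to 93.7 CPM in Ptprc-high libraries, against medians of 4.28, 8.304 and 5.28 in Ccl21a-high, Msln-high and remaining ones. E2f2, an activator of S phase genes, was at 33.1 to 64.6 CPM against medians of 2.06, 5.05 and 1.48. The most abundant drivers, the D-type cyclins Ccnd2 and Ccnd3, overlapped, with medians of 249.8 and 154 CPM in Ptprc-high against 216 and 72.2 in Ccl21a-high libraries. D-type cyclins link growth signals to the cycle, and these 2 were present in every class.

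Of 16 further G2 and M genes, 8 were above in every Ptprc-high library and 0 below. Ncapd2, a condensin subunit, and Cdc25b, the phosphatase that activates Cdk1, had medians of 62.5 and 62.1 CPM there, against 11.3 and 10.1 in Ccl21a-high, 15.1 and 10.2 in Msln-high and 14.9 and 15.6 in remaining libraries. Of 12 inhibitors and pocket proteins, 2 were above and 2 below in every Ptprc-high library, against 12.4% and 20.4% of all genes. The antiproliferative gene Btg1 was among those above, at a median of 759 CPM in Ptprc-high against 103, 140.4 and 141 in Ccl21a-high, Msln-high and remaining libraries, while Btg2 had 642 against 612, 971 and 554. The Cdk inhibitor gene Cdkn1c, named after its values were seen, was among those below, with medians of 2.85 CPM in Ptprc-high against 51.6, 27.02 and 78.4 in the same order. High replication genes and a high level of Btg1 were found in the same bulk libraries. The list as a whole did not move with Btg1: Btg2, Cdkn1a, Cdkn1b, Rb1 and Rbl2 overlapped between Ptprc-high and other libraries.

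By label, 0 of these genes passed edgeR's test in any comparison. For gp38-low over FRC, 14 of 16 G1 and S drivers and 16 of 16 G2 and M genes had estimates below 0. An unadjusted p under 0.05 was reached by 7 and 10 of these, against 6639 of all 18396 genes tested. Cdt1 and E2f2 differed by -2.64 ± 0.75 and -2.98 ± 0.93, Pttg1 (securin) and Kif2c by -1.54 ± 0.43 and -1.73 ± 0.48, and Btg1 and Cdkn2d by -1.97 ± 0.63 and -1.36 ± 0.45 (SE; edgeR adjusted p = 0.0943 for all 6). Of the 12 inhibitors and pocket proteins, 9 were below 0 and 3 above.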

How the data were processed

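Bulk RNA-seq libraries were made from sorted cells with KAPA RNA HyperPrep and RiboErase, per the labels' protocols. The submitters' processing notes name bcl2fastq 2.17, Trim Galore 0.4.3, STAR 2.5.2a and the mm10 build, and name no annotation release. For each of 27 libraries the authors deposited 1 table of whole-number read counts per gene. Column 4, the reverse-strand counts, was used; the forward strand held 6.67% to 15.3% of stranded reads. Lines that name no gene held 51.7% to 79.7% of reads and were left out. Levels were computed as CPM of the gene total, and 3 counts, the floor used, are worth 0.119 to 0.352 CPM per library, which covers counting error only. Gene lengths, GC content and positions came from GENCODE M21 (54409 of 54446 identifiers matched). Kif20a, Nusap1, Cdc20, Ccna2, Mcm7, Gins2 and Ube2c overlap neighbours on the opposite strand.

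Labelled groups were compared with edgeR 4.0.16 (R 4.3.3) quasi-likelihood tests on counts with TMM, filterByExpr and Benjamini-Hochberg adjustment over all genes at 0.05, and fits were tested on simulated data. Alternatives used DESeq2 1.42.0, limma 3.58.1 voom weights, other scalings and filters, unstranded counts and single libraries left out. Statistics were given for Mki67, Pcna and the 2 replication and 2 mitosis members with the smallest p in each comparison, and of each further list for the 2 most abundant genes and the 2 with the smallest p. Marker classes were described with no test. The 33 members, lists and classes were chosen with earlier results of these data known, and the GC bounds after the spread was seen. No library pair agreed within sampling noise.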

Additional observations from a re-analysis of the deposited data

Results flagged for a closer look

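Of 110 sets of 4 libraries (a member or a summed level in a labelled group of 4), 22 held a library whose gap to its nearest neighbour was above Dixon's 95% critical value for 4 values, as a share of the range. Chance gives about 1 in 20 for 1 set of independent values. These sets share libraries, and members other than Mki67 and Pcna were picked by p in these data. The 22 can therefore not be set against that rate. The members checked were only those given with statistics in the label comparisons, so the lists below are not complete. Aurkb and Plk1, for example, were not checked. They ran from 0.511 to 16.2 and from 0.337 to 22.2 CPM in the CD45 TG- libraries. Of the 22, 21 were in 2 libraries, both Ptprc-high.

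CD45 TG- replicate 4 had a summed replication level of 826 CPM, against 197 to 219.7 in the other 3 TG- libraries of that label. Among the replication members checked it stood apart for Mcm2 (109 CPM, others 9.498 to 10.96), Mcm3 (138 CPM, others 16.6 to 19.1), Mcm5 (142 CPM, others 8.999 to 10.1), Mcm7 (99.7 CPM, others 20.4 to 23.2), Rrm1 (75.3 CPM, others 42.4 to 45.5) and Rrm2 (32.7 CPM, others 0.766 to 2.99). Among the mitosis members checked it stood apart for Aurka (14.8 CPM, others 0.511 to 1.29), Bub1b (24.9 CPM, others 7.81 to 10.5), Cdc20 (41.3 CPM, others 2.305 to 3.2005) and Kif20a (22.4 CPM, others 1.66 to 4.23). Mcm4, a subunit of the same helicase, was at 43.99 CPM there against 29.2 to 37.2 in the other 3 and did not stand apart.

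Gp38-low TG- replicate 1 had a summed replication level of 889.7 CPM, against 183 to 271. Of the members checked, those far from the other 3 libraries were Mcm2 (83.3 CPM, others 6.58 to 19.4), Mcm3 (114 CPM, others 16.997 to 19.6), Mcm5 (118 CPM, others 10.6 to 15.4), Mcm7 (87.1 CPM, others 21.4 to 31.3) and Rrm2 (45.4 CPM, others 2.47 to 4.42) for replication. For mitosis they were Aurka (14.5 CPM, others 1.19 to 3.13), Bub1 (7.83 CPM, others 0.223 to 1.05), Bub1b (29.3 CPM, others 4.58 to 8.77) and Cdk1 (28.97 CPM, others 2.12 to 6.67). Mcm2, Mcm3, Mcm5, Mcm7, Rrm2, Aurka and Bub1b stood apart in both libraries.

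Cenpf, a kinetochore gene, stood apart in gp38-low TG+ replicate 2, at 13.02 CPM against 1.35 to 3.23 in the other 3. This library was in none of the 3 marker classes, and its Mki67 was 46.5 CPM against 19.6, 4.79 and 9.81 in TG+ replicates 1, 3 and 4.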

How the results depend on the processing

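The number of genes called by edgeR was 0 in all 6 comparisons, and another size factor, no low-count filter, unstranded counts and Gm26917 left out also gave 0. With DESeq2 it was 425 for CD45, 1 for gp38-low, 40 for gp38-high, 542 for FRC (TG+ against TG-), 12 for CD45 against gp38 and 4748 for gp38-low against FRC. With limma-voom it was 6184 for CD45 and 8651 for gp38-low against FRC, and 0 in the other 4. Leaving out each library gave 0 to 519 genes for CD45, 0 to 5403 for gp38-low against FRC (5403 without gp38-low TG- replicate 1, 1369 without FRC TG- replicate 1) and 0 in the other 4 comparisons. The cause of these differences was not tested.

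Among members given with statistics, the estimates that changed sign were those of Mki67 in gp38-low with limma-voom (0.23) and without TG- replicate 1 (0.12), and of Mki67 in gp38-high without TG- replicate 1 (-0.23) or TG+ replicate 1 (-0.044). Without gp38-high TG- replicate 2 those of Bub1b (0.29) and Cdc20 (0.083) changed sign there, and that of Pcna did without CD45 TG- replicate 4 in CD45 (0.059) and without gp38-low TG- replicate 1 in CD45 against gp38 (0.018). With Ptprc-high libraries left out, Pcna (0.16), Mcm2 (0.29) and Mcm3 (0.12) changed sign in gp38-low against FRC. Over single libraries left out, the range was -0.50 to 0.059 for Pcna in CD45, -1.91 to 0.12 for Mki67 in gp38-low, -0.23 to 0.64 (Mki67), -2.73 to 0.29 (Bub1b) and -1.97 to 0.083 (Cdc20) in gp38-high, and -0.30 to 0.018 for Pcna in CD45 against gp38. Whether replicate numbers pair the samples could not be told. The correlation of same-numbered libraries was above 0.1 in only 3 of 13 cases, but many such pairs were of different marker classes. Pairs within a class ran from -0.12 (FRC replicate 4, Ptprc-high) to 0.66 (gp38-low replicate 3, Ccl21a-high). With a replicate block 0 genes were called in each comparison, and the median over the members was -0.03 for CD45, -0.86 for gp38-low, -0.47 for CD45 against gp38 and -1.40 for gp38-low against FRC.

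Leaving Gm26917 out of the total gave median summed levels of 1512 CPM in Ptprc-high and 346 CPM in Ccl21a-high libraries, and TMM scaling 351 CPM in Msln-high ones. Depth limits Bub1 and Cenpe, whose lowest values rest on 1 read. It also limits Ccnb1 (2 reads) and Aurkb, Birc5 and Ube2c (3 reads each) in their lowest Ccl21a-high libraries. With 2 to 4 libraries a group and labels that cut across the marker classes, the genotype and the class of a library cannot be told apart in the label comparisons.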
